A study of Mus musculus with 2 samples.

Results

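Lcn2, which encodes the secreted siderophore carrier lipocalin 2, Steap4, which encodes a metalloreductase, and 8 other genes of iron uptake, storage and export were followed by RNA sequencing in mouse cavernous endothelial cell (MCEC) cultures kept in high glucose. They are 10 of the 23183 gene symbols measured. Lcn2 and Steap4 were chosen by their higher values in cells given pericyte-derived nanovesicles in these same libraries, and the other 8 (Slc22a17, Tfrc, Fth1, Ftl1, Slc40a1, Slc11a2, Cp and Slc39a14) for their known part in iron handling. The values below are therefore a description of the libraries and not a test.

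The 2 libraries differ in what the cells received. HG+HBS cells were kept in 30 mM glucose with HEPES-buffered saline, the vehicle. HG+PC-NVs cells were kept in the same glucose and given 1 µg/mL of PC-NVs, vesicles made by extruding cultured mouse cavernous pericytes. The methods place RNA isolation 72 hours after the change of glucose and 24 hours after PC-NVs, whereas 5 days in glucose are given by the labels. The cells were primary cultures from the cavernous tissue of 8-week-old male C57BL/6J mice, grown with serum and, by the methods, starved of serum for 24 hours before the glucose condition, and a library without high glucose was not analysed here.

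With 1 library per condition there is no replicate, no p-value and no SD, and an effect of PC-NVs cannot be told apart from a difference between the cultures. The deposited values are log2(normalized FPKM + 1) for 33299 transcript rows, and FPKM is a level per length of transcript. Rows of a gene were summed on the linear scale. For short, values "with HBS" and "with PC-NVs" are those of the HG+HBS and the HG+PC-NVs library. The files hold no counts, and their low values point to roughly 13300000 fragments with HBS and 11600000 with PC-NVs. Ratios of FPKM are given with 95% Wilson intervals from these approximate fragments, which cover counting error only. A log2 ratio is HG+PC-NVs over HG+HBS after adding 1 FPKM to both values, which understates differences of genes with few FPKM.

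The label of the cells was checked against 12 endothelial markers. Kdr, Tek, Tie1, Vwf, Emcn, Cldn5 and Erg were below 1 FPKM in both libraries. Pecam1, the platelet endothelial adhesion molecule, stood at 1.05 FPKM with HBS and 0.938 with PC-NVs. Cdh5, which encodes VE-cadherin, was at 5.05 and 5.73 FPKM and Egfl7 at 9.48 and 8.57 FPKM, and only Eng and Esam of the 12 reached 10 FPKM in both. All 6 fibroblast markers reached it, with a summed level of 1839 FPKM with HBS and 2196 with PC-NVs against 64.2 and 49.9 for the endothelial list. The higher fibroblast sum was carried by Dcn, which encodes decorin, at 623 and 1283 FPKM, while the other 5 fibroblast markers were lower with PC-NVs and the list's median log2 ratio was -0.26. Of the 12 endothelial markers, 7 were thus near 0 and Cdh5 was low but present, and the name MCECs is used here as the label of the cultures.

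Iron travels in blood bound to transferrin and enters cells through the transferrin receptor. It is then reduced, carried into the cytosol by divalent metal transporters, stored in ferritin, and exported by ferroportin with the help of ferroxidases. Lipocalin 2 is an acute-phase protein that binds bacterial siderophores and so keeps iron from bacteria, and it is induced by inflammatory signals in many cell types. When iron is scarce, iron regulatory proteins bind hairpins called iron-responsive elements (IREs). They block translation when the hairpin is in a 5′ untranslated region and stabilize the message when it is in the 3′ untranslated region.

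The IREs are shown because they mark members whose messages are known to be controlled by iron itself, though the form searched misses some known carriers. The GENCODE M21 transcripts on GRCm38 were searched for an unpaired C, 5 paired bases with G-T pairs allowed, the loop CAGTGN and the 5 pairing bases. Fth1, Ftl1 and Slc40a1 each held a match in the 5′ untranslated region, and Tfrc held 4 in the 3′ untranslated region. The other 6 members had none of this form in an untranslated region, Slc11a2 included, although its message is known to carry an IRE of another shape. Across 21877 protein-coding genes, 160 or 0.7314% held a match in an untranslated region. The sequences are written 5′ to 3′ on the gene's strand with the loop in capitals, and a match is a description of the letters only.
Fth1, chr19:9982732-9982760, plus strand: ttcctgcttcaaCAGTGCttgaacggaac
Ftl1, chr7:45459779-45459807, minus strand: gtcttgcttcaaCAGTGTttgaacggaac
Slc40a1, chr1:45925465-45925493, minus strand: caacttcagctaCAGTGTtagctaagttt
Tfrc, chr16:32631219-32631247, plus strand: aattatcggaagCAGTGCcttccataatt
Tfrc, chr16:32631598-32631626, plus strand: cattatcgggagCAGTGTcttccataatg
Tfrc, chr16:32631663-32631691, plus strand: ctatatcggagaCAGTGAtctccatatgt
Tfrc, chr16:32631710-32631738, plus strand: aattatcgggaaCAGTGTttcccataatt

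The promoters of Lcn2 and Steap4 are shown because these genes had the largest ratios of the 10. Each sequence is the 250 bases before a RefSeq start site on GRCm38.p6, read on the gene's strand. Capitals mark the kappa B decamer and matches to the C/EBP motif TTGCNNAA and the STAT motif TTCNNNGAA, searched on both strands. Positions are counted back from -1, the base next to the start site. In Lcn2 the capitals are, in order, a C/EBP match from -216 to -209 and a kappa B match from -43 to -34. In Steap4 they are 2 kappa B matches that begin at -250 and -226, a STAT match that begins at -116 and a C/EBP match that begins at -87. Of 32851 promoters of this length, 9.55% held a kappa B decamer, 9.56% the C/EBP motif and 7.02% the STAT motif, so a single match is common. Promoters of 7 members were searched, and matches were not confined to these genes. Ftl1, with a log2 ratio of -0.23, held a kappa B match, and Fth1 and Cp held C/EBP matches.
Lcn2, chr2:32387740-32387989, minus strand: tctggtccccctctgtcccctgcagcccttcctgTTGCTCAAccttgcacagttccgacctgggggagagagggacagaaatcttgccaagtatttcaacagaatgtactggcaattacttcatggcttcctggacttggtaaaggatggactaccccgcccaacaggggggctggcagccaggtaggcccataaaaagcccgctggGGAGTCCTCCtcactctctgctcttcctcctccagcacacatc
Steap4, chr5:7960222-7960471, plus strand: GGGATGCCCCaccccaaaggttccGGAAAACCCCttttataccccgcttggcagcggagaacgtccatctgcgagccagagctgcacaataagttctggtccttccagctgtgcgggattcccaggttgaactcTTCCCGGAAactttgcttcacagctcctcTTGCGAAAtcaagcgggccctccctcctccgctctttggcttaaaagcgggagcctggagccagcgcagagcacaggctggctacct

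Of the 10 genes, 5 were past 2-fold higher with PC-NVs, in order of their ratio Lcn2, Steap4, Cp, Slc39a14 and Slc11a2, and Slc40a1 alone was past 2-fold lower. For the background, genes were counted where their 2 log2 values averaged 1 or more. Of these 11785 counted genes, 281 or 2.38% were past 2-fold higher and 94 or 0.798% past 2-fold lower. Past 4-fold higher stood 75 genes, or 0.636%, and Lcn2, Steap4 and Cp were among them. Since part of the members were chosen on this contrast, nothing is read from their share. The log2 ratio of all genes had a median of -0.01, with 90% of genes between -0.50 and 0.61.

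**Figure D1:**
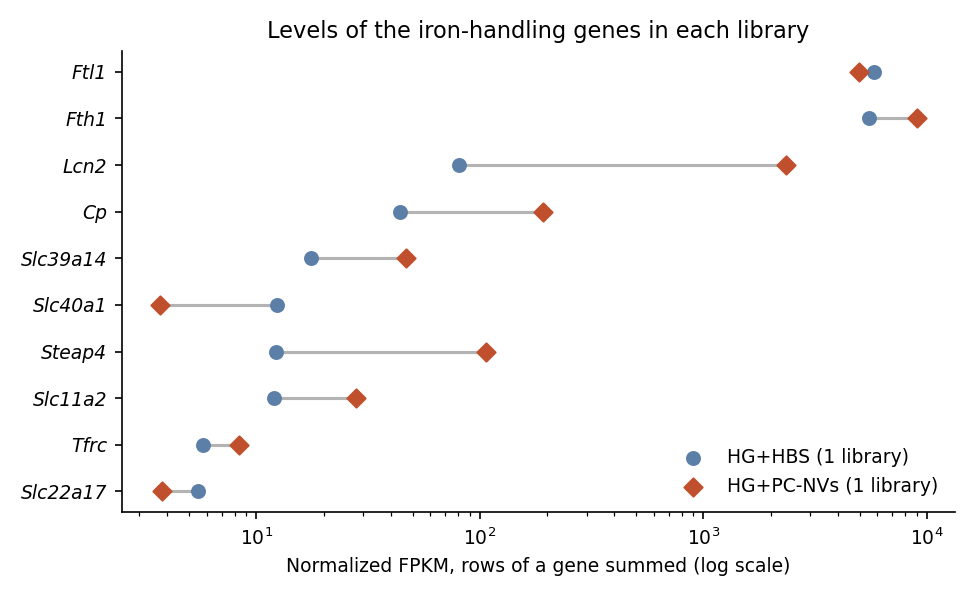
Level of each gene in HG+HBS (blue) and HG+PC-NVs (red) on a logarithmic FPKM axis, 1 library each, joined by a line, with genes ordered by their HG+HBS level. Lcn2 went from 80.4 to 2334 FPKM, while Fth1 and Ftl1 stayed at 4952 FPKM or more in both libraries.

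**Figure D2:**
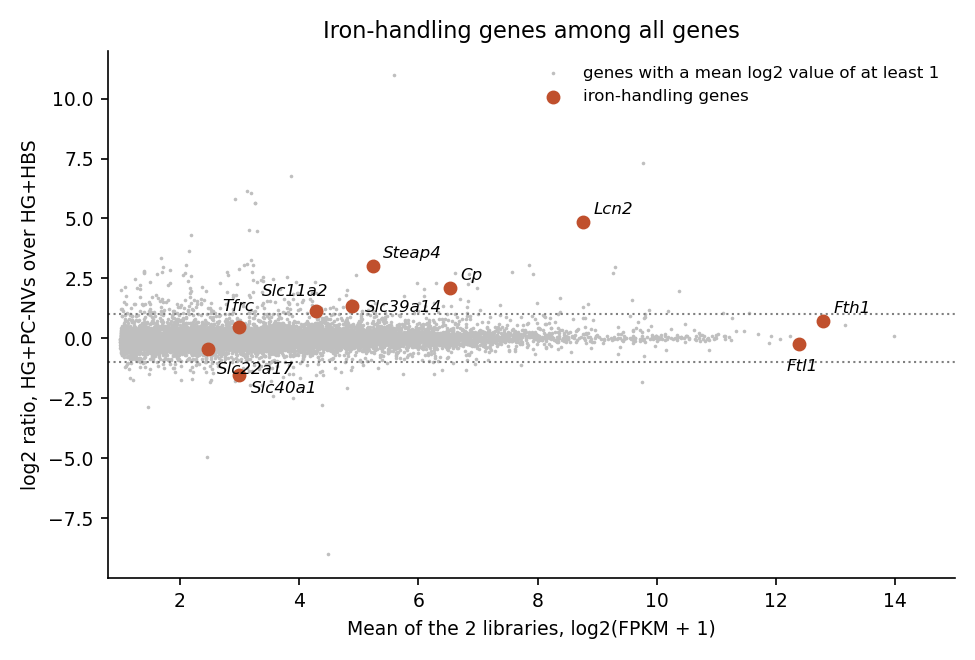
The log2 ratio of HG+PC-NVs over HG+HBS against the mean of the 2 libraries for 11785 genes (grey) and the 10 iron-handling genes (red), with dotted lines at 2-fold. Lcn2, Steap4, Cp, Slc39a14 and Slc11a2 lie above the upper line and Slc40a1 below the lower line.

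Lcn2 (ENSMUSG00000026822, chr2:32384633-32388252, minus strand) stood at 80.4 FPKM with HBS and 2334 FPKM with PC-NVs. The log2 ratio was 4.84, the 9th highest of 11785 genes, and the plain ratio of FPKM was 29.0 with a counting interval of 27.2 to 30.9. The gene was far from silent in the vehicle library, where it ranked 971st by level, and it ranked 20th in HG+PC-NVs. Its share of all FPKM went from 0.0154% to 0.402%. In RNA from a whole culture, a different number of expressing cells and a different amount of RNA per cell cannot be told apart. Nor can RNA made by the cultured cells be told apart from RNA brought in by the vesicles. The same holds for the genes below.

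Slc22a17 (chr14:54906304-54913132, minus strand), which encodes a cell-surface receptor for lipocalin 2, was low in both libraries. It stood at 5.48 FPKM with HBS and 3.80 FPKM with PC-NVs, a plain ratio of 0.692 with a counting interval of 0.543 to 0.883. The ligand was 14.7 times the receptor with HBS and 615 times with PC-NVs, per length of transcript. Lrp2, which encodes megalin, another lipocalin 2 receptor, was at 0.0314 FPKM with HBS and 0.0103 FPKM with PC-NVs. Both receptors were thus at low levels beside Lcn2 itself.

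Mmp9 encodes a matrix metalloproteinase that forms a complex with lipocalin 2. It was the other gene of the 6 siderophore and lipocalin 2 partners past 2-fold higher, at 3.10 FPKM with HBS and 13.5 FPKM with PC-NVs. Bdh2, which takes part in making a mammalian siderophore, was at 16.7 FPKM with HBS and 9.58 FPKM with PC-NVs, with a log2 ratio of -0.74. On a list of 13 genes of the wider lipocalin family, 5 were at 0 in both libraries and 3 were counted genes. Of those 3, Rbp4, the plasma carrier of retinol, was at 3.17 and 10.3 FPKM, and Apod, which encodes apolipoprotein D, at 179 and 171 FPKM. A higher level was thus seen in Lcn2 and Rbp4 and not in Apod, the other counted gene of the list.

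Steap4 (chr5:7960457-7982213, plus strand) encodes a metalloreductase that reduces ferric iron and cupric copper at membranes. It stood at 12.2 FPKM with HBS and 106 FPKM with PC-NVs. The log2 ratio was 3.02, the 22nd highest of 11785 genes, and the plain ratio was 8.71 with a counting interval of 7.94 to 9.55. By level the gene moved from rank 5594 to rank 765. The family as a whole did not share this difference. Steap1 was at 25.2 and 37.0 FPKM, Steap2 at 25.1 and 32.9 FPKM, and Steap3, the endosomal ferrireductase, at 45.2 and 31.7 FPKM in HG+HBS and HG+PC-NVs. Steap4 was therefore the lowest of the 4 with HBS and the highest with PC-NVs, and its share of their summed FPKM went from 11.3% to 51.1%. Of the 8 STEAP family and other ferric reductase genes, 7 were counted, Steap4 alone was past 2-fold, and the median log2 ratio was 0.27.

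Iron import was described by 3 of the genes. Slc11a2 (chr15:100387898-100425072, minus strand) encodes the divalent metal transporter DMT1, which moves ferrous iron out of endosomes. It stood at 12.04 FPKM with HBS and 28.0 FPKM with PC-NVs, with a log2 ratio of 1.15 and a plain ratio of 2.32 with a counting interval of 2.12 to 2.54. Slc39a14 (chr14:70303469-70351425, minus strand) encodes ZIP14, a zinc, manganese and iron transporter that takes up iron not bound to transferrin. It stood at 17.5 FPKM and 46.8 FPKM, a log2 ratio of 1.37 and a plain ratio of 2.68 with a counting interval of 2.50 to 2.87. Tfrc (chr16:32608920-32632794, plus strand) encodes the transferrin receptor, and it differed less, at 5.80 FPKM and 8.36 FPKM with a plain ratio of 1.44 and a counting interval of 1.26 to 1.65. Both transporters of ferrous iron were past 2-fold, and the receptor was not. For Slc11a2 this depended on the setting, with a log2 ratio of 0.95 when 5 FPKM in place of 1 were added and 0.86 for its most abundant row alone.

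The other importers lay on the same side of 0 at smaller ratios. Slc11a1, the macrophage homolog of DMT1, had a log2 ratio of 0.69, Slc39a8, the homolog of ZIP14, 0.34, and the lysosomal channel Mcoln1 0.10. The median over all 5 importers was 0.69. Among 11 genes of transferrin and receptor-mediated uptake, 7 were counted, and 2 were past 2-fold. They were Trf, which encodes transferrin, at 37.9 FPKM with HBS and 106 FPKM with PC-NVs, and Hp, which encodes the hemoglobin scavenger haptoglobin, at 0.656 and 3.69 FPKM. Hp was below 1 FPKM with HBS and was counted only through its level with PC-NVs. Trf and Hp both encode plasma acute-phase or carrier proteins, and neither is an importer.

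Slc11a2 and Slc39a14 have several transcript rows each, and the rows carry no transcript identifiers. Both rows of Slc11a2 were higher, at 4.37 and 13.3 FPKM for the first and 7.68 and 14.7 FPKM for the other, with log2 ratios of 1.41 and 0.86. In Slc39a14 a single row held 92.8% of the gene's FPKM with HBS and 96.1% with PC-NVs, and its log2 ratio was 1.42. The minor rows of Slc39a14 went opposite ways, from 1.26 FPKM to near 0 and from near 0 to 1.81 FPKM. The gene's ratio thus followed its main row, and how reads were shared between transcripts was not tested.

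**Figure D3:**
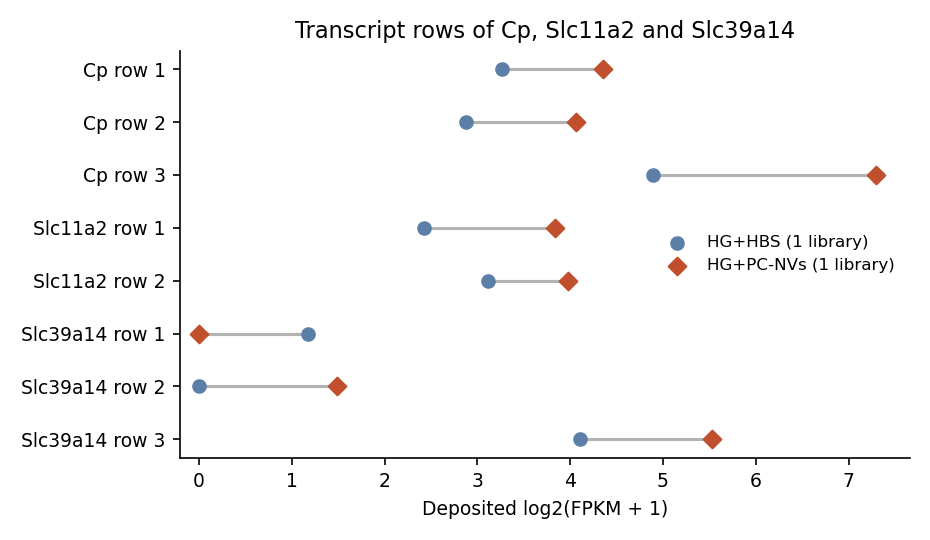
Deposited log2(FPKM + 1) of each transcript row of Cp, Slc11a2 and Slc39a14 in HG+HBS (blue circles) and HG+PC-NVs (red diamonds), 1 library each, joined by a line. All 3 rows of Cp and both rows of Slc11a2 lie higher in HG+PC-NVs, and the first row of Slc39a14 lies lower.

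Ferritin is a shell of heavy chains, which oxidize iron, and light chains, which help it to mineralize, and its genes were among the most abundant messages in both libraries. Fth1 (chr19:9980598-9985098, plus strand), the heavy chain, stood at 5516 FPKM with HBS and 9016 FPKM with PC-NVs, and ranked 4th by level in both. Ftl1 (chr7:45457944-45459884, minus strand), the light chain, stood at 5806 FPKM and 4952 FPKM, and ranked 3rd and then 6th. The log2 ratio was 0.71 for Fth1 and -0.23 for Ftl1, so the 2 chains lay on opposite sides of 0.

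The heavy to light chain ratio was 0.950 with HBS and 1.82 with PC-NVs, per length of transcript. Together the chains made up 2.17% of all FPKM with HBS and 2.41% with PC-NVs. The Fth1 difference depends on scaling. When the libraries are quantile normalized once more, Fth1 has the same value in both because it holds the same rank, and Ftl1 has a log2 ratio of -0.80. Both ferritin genes have near-identical copies elsewhere in the genome, of which 5 are annotated by name and 0 were listed in the files, so reads from them may be counted here and both levels are uncertain. The remaining storage genes differed little. Ncoa4, which delivers ferritin to lysosomes, was at 39.2 and 40.4 FPKM, and Pcbp1 and Pcbp2, which load iron into ferritin, had log2 ratios of 0.03 and -0.11.

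The 2 export genes lay on opposite sides of 0. Slc40a1 (chr1:45908068-45926523, minus strand), which encodes ferroportin, the only known cellular iron exporter, stood at 12.4 FPKM with HBS and 3.69 FPKM with PC-NVs. Its log2 ratio of -1.51 was the 23rd lowest of 11785 genes, and the plain ratio was 0.298 with a counting interval of 0.248 to 0.358. Adding 5 FPKM in place of 1 brought the log2 ratio to -0.9993, just within 2-fold. Cp (chr3:19957054-20009145, plus strand) encodes ceruloplasmin, the copper-carrying ferroxidase that oxidizes exported iron for loading onto transferrin. It stood at 43.8 FPKM and 191 FPKM, a log2 ratio of 2.10 and a plain ratio of 4.36 with a counting interval of 4.18 to 4.55. The exporter was thus lower and the ferroxidase higher in the same library, and the Cp to Slc40a1 ratio went from 3.54 to 51.8.

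All 3 rows of Cp were higher in HG+PC-NVs, with log2 ratios of 1.08, 1.19 and 2.40. The last of them, the most abundant, made up 65.8% of Cp FPKM with HBS and 81.6% with PC-NVs. Cp overlaps Hps3 on the opposite strand, and whether strand was used in counting is not given in the sources used here. Hps3 itself stood at 3.03 FPKM and 3.08 FPKM, far below Cp. Heph, which encodes the related ferroxidase hephaestin, was at 2.64 FPKM with HBS and 3.04 FPKM with PC-NVs.

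**Figure D4:**
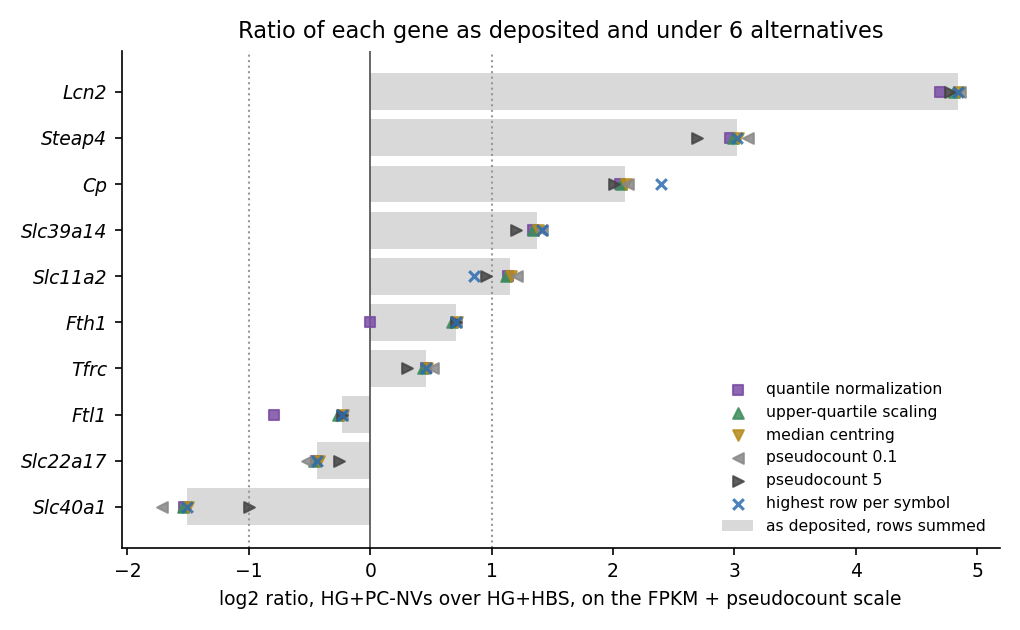
Log2 ratio of HG+PC-NVs over HG+HBS for each of the 10 genes, as grey bars for the deposited values with 1 FPKM added and as symbols for 6 alternative settings, 1 library per condition and no error bars. Lcn2 at 4.84 and Slc40a1 at -1.51 are the ends of the range of the bars, and dotted lines mark 2-fold.

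The 3 genes with a 5′ IRE match did not move as a group, with log2 ratios of 0.71 for Fth1, -0.23 for Ftl1 and -1.51 for Slc40a1. Tfrc, with its 3′ matches, had a ratio of 0.46. Of 11 messages listed as IRE carriers, 6 held a match of the form searched here in an untranslated region, and 10 were counted. Among those 10, Slc11a2 was past 2-fold higher, Slc40a1 was past 2-fold lower and the median was -0.12. The messages of the iron regulatory proteins themselves, Aco1 and Ireb2, had log2 ratios of -0.02 and 0.11. Their RNA levels say nothing of their binding, which was not measured.

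The rest of the iron and heme machinery was read from lists of its genes. Of 82 other genes on the iron and heme lists, 70 were counted, and 4 were past 2-fold higher (Mmp9, Trf, Hp and Hif1a), 0 were past 2-fold lower and the median log2 ratio was 0.13, beside -0.01 over all genes. Over all 11785 counted genes, 2.38% were past 2-fold higher and 0.798% past 2-fold lower. The filter matters for the iron and heme lists, since Hp was counted only through its level with PC-NVs. Bmp6, with a log2 ratio of -1.16, was too low to be counted. None of 18 genes of heme uptake, synthesis and breakdown was past 2-fold, and their ratios ran from -0.44 to 0.50. Hmox1, the inducible heme oxygenase that frees iron from heme, was at 167 FPKM with HBS and 196 FPKM with PC-NVs. None of 19 genes of mitochondrial iron and iron-sulfur cluster assembly was past 2-fold either, with ratios from -0.40 to 0.58. At the shares over all counted genes, lists this short may well hold none, so nothing is read from these counts.

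Among 14 regulators of iron handling, 10 were counted and Hif1a, a subunit of the hypoxia-inducible transcription factor, was the member past 2-fold, at 41.2 FPKM with HBS and 87.5 FPKM with PC-NVs. Hamp, which encodes the hormone hepcidin that degrades ferroportin, was listed at 0 in both libraries. Bmp6, an inducer of hepcidin in the liver, was at 1.87 FPKM and 0.285 FPKM, too low to be counted. Fbxl5, the iron-sensing subunit of the ligase that degrades an iron regulatory protein, had a log2 ratio of 0.50.

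**Figure D5:**
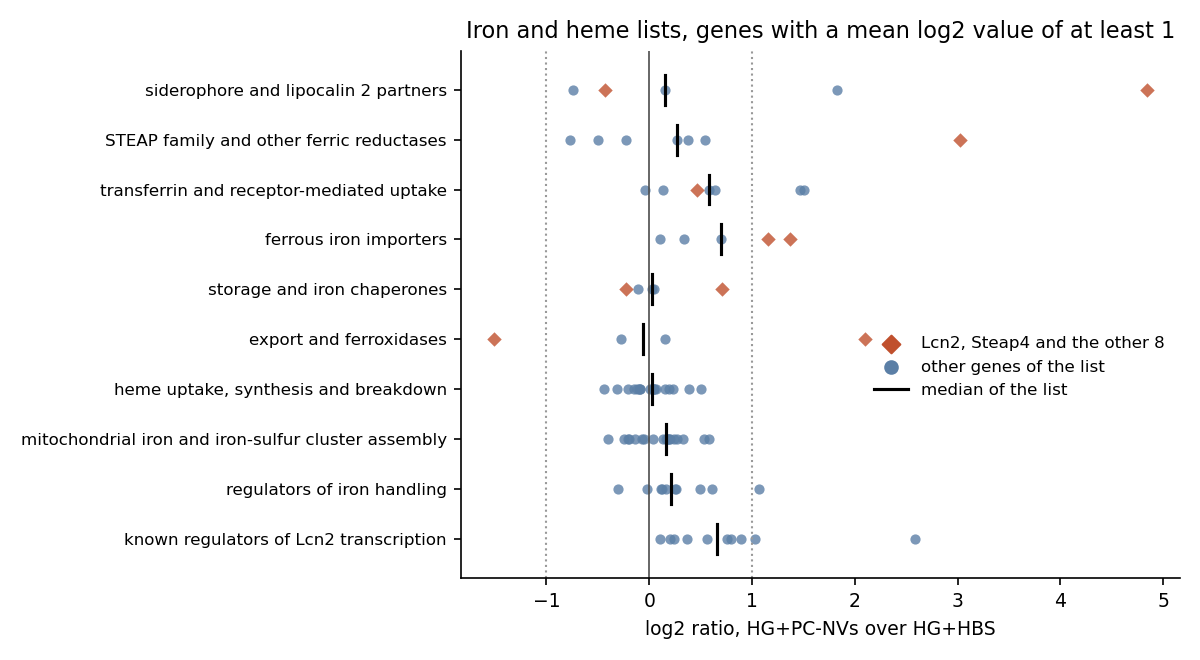
Log2 ratio of HG+PC-NVs over HG+HBS for each counted gene on 10 lists of iron, heme and Lcn2 regulator genes, with the list's median as a black bar and dotted lines at 2-fold. Heme and mitochondrial genes lie between the lines, and all 10 Lcn2 regulators lie above 0. The median over all counted genes was -0.01.

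The 10 genes known to act upstream of Lcn2, through NF-kappa B, C/EBP and STAT factors or cytokine receptors, all had ratios above 0, with a median of 0.66. Over all 11785 counted genes the median was -0.01, and 281 or 2.38% were past 2-fold higher. Of the 10, Nfkbiz and Cebpb were past 2-fold. Nfkbiz, which encodes the NF-kappa B cofactor I kappa B zeta, was at 4.69 FPKM with HBS and 33.0 FPKM with PC-NVs. Cebpb, a C/EBP factor, was at 88.8 and 182 FPKM. Cebpd, another C/EBP factor, was at 129 and 239 FPKM, a log2 ratio of 0.89. Stat3, which carries interleukin 6 signals, had a ratio of 0.11. The list was written with the Lcn2 difference known, and the matches in the promoters above do not show that any of these factors was bound.

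The genes nearest to Lcn2 and Steap4 by log2 ratio were sought among 7584 genes whose log2 values averaged 3 or more. Only 2 libraries enter this likeness, so it says that the ratios with 1 FPKM added were of like size and nothing more. Nearest to Lcn2 were Camp, an antimicrobial peptide of neutrophils, with a ratio of 4.50, Il6, the cytokine interleukin 6, with 4.46, and the acute-phase genes Saa1 and Saa2 with 5.63 and 5.64. Saa1 and Saa2 are near-identical copies whose reads may be split between them, so their values are uncertain. Each was far less abundant than Lcn2, with Camp at 0.871 and 41.4 FPKM and Il6 at 1.09 and 45.1 FPKM. Saa1 was at 0.359 and 66.2 FPKM and Saa2 at 0.356 and 66.7 FPKM. Camp, Il6, Saa1 and Saa2 reached an average of 3 only through their level with PC-NVs. Their ratios depend on the added 1 FPKM. Nearest to Steap4 were Cbr2, a carbonyl reductase, with 3.05, Slpi, a secreted inhibitor of neutrophil proteases, with 3.06, Kcnk10, a potassium channel, with 3.07, and Ccl2, a monocyte chemokine, with 2.97. Slpi and Ccl2 were the abundant members of that group, at 79.1 and 667 FPKM and at 224 and 1768 FPKM. Cbr2 was at 2.249 and 25.99 FPKM and Kcnk10 at 1.908 and 23.39 FPKM. Cbr2 and Kcnk10 also reached an average of 3 only through their level with PC-NVs, and their ratios likewise depend on the added 1 FPKM.

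Lcn2 is also a product of neutrophils and macrophages, so 12 myeloid markers were read beside it. Their summed level was 268 FPKM with HBS and 319 FPKM with PC-NVs, and the median log2 ratio of the 8 counted was 0.18. Most of that sum was Lyz2, the lysozyme of macrophages and neutrophils, at 212 and 193 FPKM. The macrophage markers Cd68, at 36.2 and 26.3 FPKM, and Csf1r, at 8.39 and 6.204 FPKM, were also lower with PC-NVs. Camp and Adgre1 account for the higher sum. Past 2-fold higher were 3 of the 8 counted markers, beside 2.38% of all counted genes. They were Camp, the macrophage marker Adgre1 at 7.44 and 42.5 FPKM, and S100a9, a calcium-binding protein of neutrophils, at 0.00323 and 5.96 FPKM. S100a9 and Camp were below 1 FPKM with HBS and were counted only through their level with PC-NVs. The defining neutrophil granule genes Mpo and Retnlg were listed at 0 in both libraries, Elane was within rounding of 0, and Ngp was at 0.0709 FPKM with HBS and 0 with PC-NVs. The part of myeloid cells in the Lcn2 difference was not tested beyond these levels.

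Pericyte and smooth muscle markers had a summed level of 104 FPKM with HBS and 88.4 FPKM with PC-NVs, and 5 of the 8 counted had ratios below 0, with a median of -0.19. The more abundant pericyte markers were lower with PC-NVs, with Pdgfrb, a growth factor receptor, at 38.4 and 33.7 FPKM and Cspg4, the proteoglycan NG2, at 20.4 and 12.2 FPKM. Past 2-fold were 3 markers, 2 higher and 1 lower, beside 2.38% and 0.798% of all counted genes. Rgs5, a pericyte regulator of G protein signaling, was at 1.69 and 7.23 FPKM, Kcnj8, a potassium channel of pericytes, at 7.98 and 20.4 FPKM, and Acta2, smooth muscle actin, at 27.6 and 8.02 FPKM. The part of these cell types in the values of the 10 genes was not tested.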

How the data were processed

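RNA of MCECs was sequenced as 1 library per condition. The authors isolated poly(A) RNA, made stranded paired-end libraries, trimmed the reads, aligned them with TopHat (the submitters' processing notes name the build mm10), counted reads (BEDTools), derived FPKM (Cufflinks) and normalized them in R with edgeR, by what the methods call quantile normalization. Versions and annotation are not given in the sources used here. The deposited values are log2(normalized FPKM + 1), in 33299 rows per library. When both libraries are sorted, 2318 rows are over 0.05 apart.

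Here the rows of a symbol were summed after conversion to FPKM, and log2 ratios were taken with a pseudocount of 1, with no further scaling. A gene was counted where its mean log2 value was at least 1 and called past 2-fold. The worth of 1 fragment was the most frequent low value of FPKM times length in kb over 2189 genes, and counting intervals are 95% Wilson intervals on fragments so estimated. Coordinates come from GENCODE M21 on GRCm38, which held 95.5% of the symbols. Promoters are from RefSeq on GRCm38.p6 and were at hand for 7 of the 10 genes. The calculations were tested on simulated data.

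The members and lists were chosen with earlier results of these data known. The text names the 10 members, genes past 2-fold on lists of iron, heme, lipocalin or Lcn2 regulator genes, genes that define a list, and the 4 genes nearest to Lcn2 and to Steap4 by ratio. The neighbors on the chromosome, Bmp6 and the other list genes within 2-fold were named after their values were seen. Of the list symbols, 4 were matched by synonym, and 1 (Ly6g) was not listed. Alternatives covered the scaling, the pseudocount, the choice of row, the filter and the fold. Python 3.11.15, numpy 2.4.6, pandas 2.3.3, statsmodels 0.14.6 and matplotlib 3.10.9 were used.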

Additional observations from a re-analysis of the deposited data

How the results depend on the processing

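No paired analysis was possible because each condition has a single library. Leaving out a replicate was not possible either. Over 60 combinations of a member and an alternative, 59 kept the direction of the log2 ratio and 48 moved by less than counting error. The exception in direction is Fth1 under quantile normalization, where its equal rank sets the ratio to -0.00 by construction. Lcn2 had its lowest ratio of 4.69 under quantile normalization, and Steap4 2.69 with a pseudocount of 5. Slc40a1 ranged from -1.72 to -0.9993, Slc11a2 from 0.86 to 1.21, Cp from 2.01 to 2.40 and Slc39a14 from 1.21 to 1.42. Slc40a1 and Slc11a2 were within 2-fold with a pseudocount of 5, and Slc11a2 also when its most abundant row alone was used (0.86).

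Over all genes, a pseudocount of 0.1 gave 344 past 2-fold higher and 190 lower, beside 281 and 94 with a pseudocount of 1. With a pseudocount of 5, 150 genes were past 2-fold higher and 34 lower, with 0 members lower. A mean log2 value of at least 3 left 160 higher and 49 lower, again with 0 members lower because Slc40a1 is below that level. A fold above 1.5 gave 628 higher and 421 lower. A fold above 4 gave 75 higher and 7 lower, with 3 members higher and 0 lower. All 51 list medians recomputed under other scalings stayed within 0.1 of the values given. Depth limits the low genes most: Slc22a17 rests on about 172 and 104 fragments, and no setting stands in for the spread between cultures.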

Other observations

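Among counted genes, those nearest to Lcn2 and Steap4 on the chromosome did not share the size of their ratios. Nearest to Lcn2, at 2695 bases and on the same strand, 1110008P14Rik stood at 80.8 FPKM with HBS and 153.8 FPKM with PC-NVs, with a log2 ratio of 0.92. On the other side, Ptges2, a prostaglandin E synthase 7644 bases away, stood at 14.2 and 17.7 FPKM. Sri, which encodes the calcium-binding protein sorcin and lies 63865 bases from Steap4, was at 39.3 and 36.9 FPKM. The nearest counted gene on its other side was Steap1, 2211131 bases from Steap4. Around Slc40a1, Wdr75 at 84449 bases and the zinc transporter Slc39a10 at 881021 bases had ratios of -0.11 and -0.28. Around Slc39a14, Ppp3cc at 13998 bases and Polr3d at 87332 bases had ratios of 0.28 and 0.18.

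Without the ferritin chains, the summed level of the other 8 genes was 189.5 FPKM with HBS and 2722 FPKM with PC-NVs, and most of the latter was Lcn2. Krt18, a keratin of simple epithelia, was at 9.61 FPKM with HBS and 2.05 FPKM with PC-NVs. It made up most of the summed epithelial list, which was at 10.01 and 2.36 FPKM. The other 5 markers of that list were below 1 FPKM in both libraries, with Cdh1, Krt5 and Krt14 at 0.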
